A study of Mus musculus with 8 samples.

Results

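The machinery of DNA replication and of nucleotide supply was followed through 48 genes, taken by gene name from the array (59 probes). The rule picks genes by name. All 48 were present and all 48 passed the filter on dim probes, out of 31751 genes on the array and 16153 genes tested. The cells were C10, made from the HAFTL pre-B line of the mouse, in which the myeloid transcription factor C/EBPα can be switched on. Control cells carried a control short hairpin RNA and the other line a short hairpin RNA against Tet2, and both lines carried the inducible C/EBPα. Each line was sampled without induction (0 h) and after 24 h with estradiol (100 nM), IL-3 (10 ng/ml) and M-CSF (10 ng/ml), which drives the pre-B cells towards macrophage-like cells. Each of these 4 groups had 2 arrays, described as technical duplicates, so every p-value below rests on the spread between technical duplicates, says nothing of the spread between cultures, and has n = 2 arrays in every group mean.

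Replication starts at origins bound by the origin recognition complex (Orc genes). In G1 phase Cdc6 and Cdt1 load the ring-shaped Mcm2-7 helicase there, a step called licensing that geminin (Gmnn) blocks later in the cycle. In S phase the kinase Cdc7 with Dbf4, the GINS complex and Mcm10 activate the helicase, primase and the polymerases copy the strands, and Pcna, loaded by replication factor C, clamps the polymerases to DNA. Ribonucleotide reductase, thymidine kinase, thymidylate synthase and dUTPase provide and clean the deoxynucleotide pool. Many of these genes are textbook targets of the E2F transcription factors, which are active in cycling cells.

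Promoter sequences from the RefSeq table (build GRCm38.p6) were searched over the 250 bases before each start, on both strands, for the E2F sites TTTCCCGC, TTTCGCGC, TTTGCCGC and TTTGGCGC, since the genes moved together in the results below. The table held 40 of the 48 genes, with 49 start windows. An E2F match lay before a start of 8 of these 40 genes (20.0%), against 2.16% of all 27025 genes in the table and 3.80% of the 9743 of them that were tested on the array. By window, the shares were 16.3% of 49 and 1.86% of 32851. Stretches of 80 bases with the matches of all these 8 genes are printed 5′ to 3′ on the gene's strand, with the E2F letters in capitals. The 8 genes span much of the range of responses, from Mcm7 and Cdc6 to Gins3.
Orc3: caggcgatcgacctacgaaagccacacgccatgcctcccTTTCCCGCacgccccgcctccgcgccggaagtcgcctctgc
Cdc6: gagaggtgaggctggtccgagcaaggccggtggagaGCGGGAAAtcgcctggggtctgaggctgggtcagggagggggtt
Mcm5: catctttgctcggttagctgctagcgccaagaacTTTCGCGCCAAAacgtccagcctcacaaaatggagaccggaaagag
Mcm6: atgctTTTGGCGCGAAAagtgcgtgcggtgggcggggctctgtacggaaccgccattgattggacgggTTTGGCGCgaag
Mcm7: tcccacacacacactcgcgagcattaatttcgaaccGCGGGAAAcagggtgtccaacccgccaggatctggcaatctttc
Gins3: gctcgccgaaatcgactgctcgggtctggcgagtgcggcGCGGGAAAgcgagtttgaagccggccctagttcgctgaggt
Pola1: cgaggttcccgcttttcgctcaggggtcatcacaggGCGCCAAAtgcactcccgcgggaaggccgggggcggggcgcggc
Rfc3: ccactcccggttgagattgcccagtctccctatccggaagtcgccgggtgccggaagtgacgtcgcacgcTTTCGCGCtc

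The stretches lie at chr4:34614943-34615022 on the minus strand (Orc3), chr11:98907977-98908056 on the plus strand (Cdc6), chr8:75109322-75109401 on the plus strand (Mcm5), chr1:128359741-128359820 on the minus strand (Mcm6), chr5:138172005-138172084 on the minus strand (Mcm7), chr8:95633479-95633558 on the plus strand (Gins3), chrX:93632250-93632329 on the minus strand (Pola1) and chr5:151651209-151651288 on the minus strand (Rfc3). In Mcm5 and in the first run of Mcm6 a pair of matches on opposite strands overlap, and Mcm6 has another match nearer its start. The matches begin 41 bases before the start in both Orc3 and Gins3, neither of which was called below. Among genes that were called lower, a match began nearer in Rfc3, at 10 bases, and slightly farther in Mcm6, at 47 bases. The overlapping matches of Mcm6 begin at 110 and 106 bases. Those of Cdc6 and Pola1, which fell strongly, begin 138 bases before it. Whether distance goes with the change was not tested. The 8 genes with a match had a median induction change of -3.79 in control cells and -3.96 in the line labelled knockdown, against -3.01 and -3.31 for the 32 genes in the table without these letters. CCAAT boxes (CCAAT, either strand) lay before 55.0% of the 40 genes, 37.5% of all genes in the table and 40.7% of those also tested on the array. CHR elements (TTTGAA or TTCGAA) lay before 17.5%, 19.6% and 15.2%. A match is a description of the letters, not evidence of binding.

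Levels are given as multiples of each array's 75th percentile of probe signal, so a level of 1 lies at that percentile, and changes are log2 differences with the standard error (SE) of the fit. On each array, 47.4% to 55.6% of probe spots stood well above background, and duplicate arrays correlated at 0.992 to 0.994 across genes. The targeted gene Tet2 did not check the labels: its level was 0.425 and 0.389 on the control arrays at 0 h and 0.350 and 0.406 on those of the other line, a difference of -0.11 ± 0.10 (adjusted p = 0.54), and on a second probe -0.28 ± 0.13 (adjusted p = 0.23), so the latter is called the line labelled knockdown throughout. At 24 h the same Tet2 probes gave differences of 0.01 ± 0.10 (limma, adjusted p = 0.98) and 0.16 ± 0.13 (adjusted p = 0.49). All 12 pre-B markers were well above background in every group, and their summed level was 556 and 598 on the control arrays at 0 h and 291 and 317 at 24 h, and 527 and 602 against 402 and 421 in the line labelled knockdown. The summed level of the 10 macrophage markers was 7.04 and 7.52 at 0 h and 979 and 1040 at 24 h in control cells, and 6.30 and 6.74 against 968 and 1050 in the other line. The part of either in the changes of the replication genes was not tested. The sums over all 6 genes of the erythroid and of the stromal list did not exceed 0.360 on any array, and 4 of 6 genes of each were too dim to be tested. The T cell list had 3 of 7 genes tested. Its sum over all 7 was 1.92 and 2.2 at 0 h against 3.27 and 4.51 at 24 h in control cells. In the other line it was 1.72 and 2.49 against 3.61 and 4.95. Fewer cells of a type and less RNA per cell cannot be told apart in such bulk samples.

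The first comparison asked how replication genes responded to induction in control cells. A gene was called when it changed at least 2-fold with an adjusted p under 0.05 (limma, Benjamini-Hochberg over the 16153 genes tested). In control cells 43 of the 48 genes fell and none rose, where 13.1% of all genes tested were called lower and 14.2% higher. The median change was -3.06, which left 12% of the starting level, while the median of all genes was 0.00. The line labelled knockdown gave 44 genes that fell and none that rose, with 15.4% of all genes called lower and 16.7% higher, and a median of -3.38 (9.63% of the starting level) beside 0.14 for all genes. The inductions of the 2 lines share no arrays. Arrays at 24 h lay below those at 0 h without overlap for 47 of 48 genes in each line, against 39.5% of all genes in control cells and 38.3% in the other line. Among the 1% of genes with the lowest change were 13 of the 48 in control cells and 14 in the line labelled knockdown, and among the lowest 5% were 36 and 37. Within each slide, which held 1 array of every group, the medians were -3.08 and -3.04 in control cells and -3.37 and -3.40 in the other line.

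**Figure D1:**
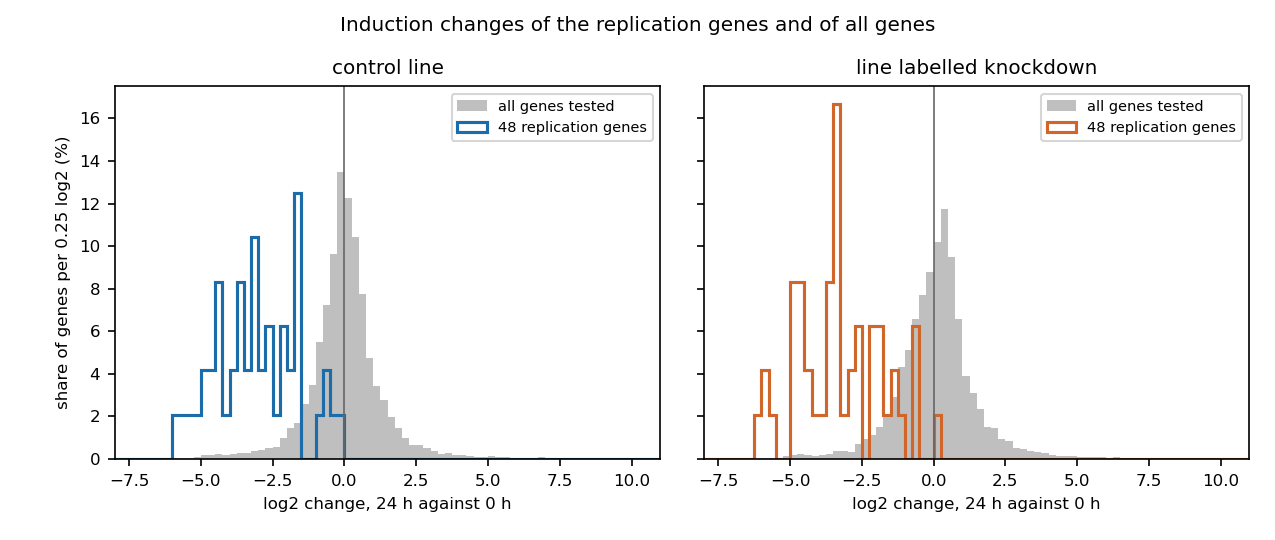
Distribution of log2 changes after 24 h of induction for the 48 replication genes (coloured outline) and all 16153 genes tested (grey), as the share of genes in bins of 0.25, for the control line (left) and the line labelled knockdown (right). The replication genes centre on -3.06 and -3.38 while all genes centre on 0.00 and 0.14.

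The origin recognition complex had the smallest median change of the 9 roles, -1 in control cells and -0.68 in the line labelled knockdown, with 2 of 5 subunits called lower in each line. Orc6, the smallest subunit, had levels of 11.4 and 11 on the control arrays at 0 h and 1.82 and 1.73 at 24 h, and of 13 and 13.3 against 1.71 and 1.70 in the line labelled knockdown. The times did not overlap, and the changes were -2.66 ± 0.06 (adjusted p = 1.8e-06) and -2.94 ± 0.06 (adjusted p = 1.1e-06). Orc2 fell by 1.57 in control cells and by 2.21 in the other line. The other three subunits stayed closer to their starting level. Orc3 had levels of 8.74 and 8.80 at 0 h and 5.16 and 5.32 at 24 h in control cells, and of 8 and 8.41 against 4.97 and 5.55 in the line labelled knockdown. Its times did not overlap either, and changes of -0.74 ± 0.07 and -0.64 ± 0.07 passed the adjusted p (0.00034 and 0.00055) but not the 2-fold limit, and a second Orc3 probe gave -0.36 ± 0.14 and -0.74 ± 0.14. Orc5 lay at that limit in control cells, with 0.422 and 0.430 at 0 h against 0.219 and 0.208 at 24 h, a change of -1 just short of 2-fold (adjusted p = 0.00046), and with 0.367 and 0.320 against 0.231 and 0.197 in the line labelled knockdown, a change of -0.68 (adjusted p = 0.0021). It was called in control cells under median scaling, quantile normalization of the processed signal and scaling to reference genes, and without control replicate 1 at 0 h or at 24 h, but not with the normexp correction and quantile normalization (-0.80). Orc4 was noisy: its levels of 0.301 and 0.393 at 0 h overlapped those of 0.181 and 0.307 at 24 h in control cells, and the changes of -0.55 ± 0.30 and -0.54 ± 0.30 did not pass (adjusted p = 0.16 in each line). A second Orc4 probe gave -0.73 ± 0.10 and -0.93 ± 0.10, under 2-fold as well.

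Licensing factors fell without exception, 9 of 9 called in each line, with medians of -3.76 and -4.32. Mcm7, a subunit of the helicase ring, had the largest mean change of them: 43.3 and 40.1 in control cells at 0 h against 1.57 and 1.41 at 24 h, and 44.1 and 45.1 against 1.39 and 1.42 in the line labelled knockdown. That is a change of -4.81 ± 0.08 (adjusted p = 9.6e-07) and -4.99 ± 0.08 (adjusted p = 6.7e-07), with duplicates close and times far apart. The other ring subunits fell by 3.54 (Mcm2), 4.21 (Mcm3), 3.75 (Mcm4), 4.45 (Mcm5) and 3.76 (Mcm6) in control cells, and by 3.6, 4.65, 4.32, 4.68 and 3.81 in the line labelled knockdown. Cdc6, the loader that brings the ring to the origin, had levels of 0.602 and 0.810 at 0 h against 0.0269 and 0.0381 at 24 h in control cells, and of 0.868 and 1.11 against 0.0264 and 0.0401 in the other line. It was not well above background on either control array at 24 h, so on this probe it was at least 17.5-fold lower there, by the measured 0 h level over the lowest signal that counts as detected, or the probe's own where that was higher. In the line labelled knockdown 1 of 2 arrays at 24 h measured it, and the fitted change was -4.92 ± 0.29 (adjusted p = 3.9e-05). A second Cdc6 probe, well above background on 5 of 8 arrays too, gave fitted changes of -3.71 ± 0.09 and -3.85 ± 0.09. Its partner Cdt1 fell by 3.05 and 3.71. Geminin (Gmnn), the inhibitor of Cdt1, moved least of the licensing genes, from 1.83 and 1.97 to 0.284 and 0.317 in control cells and from 2.06 and 2.21 to 0.195 and 0.233 in the line labelled knockdown. These were changes of -2.66 ± 0.11 (adjusted p = 1.2e-05) and -3.32 ± 0.11 (adjusted p = 5e-06).

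**Figure D2:**
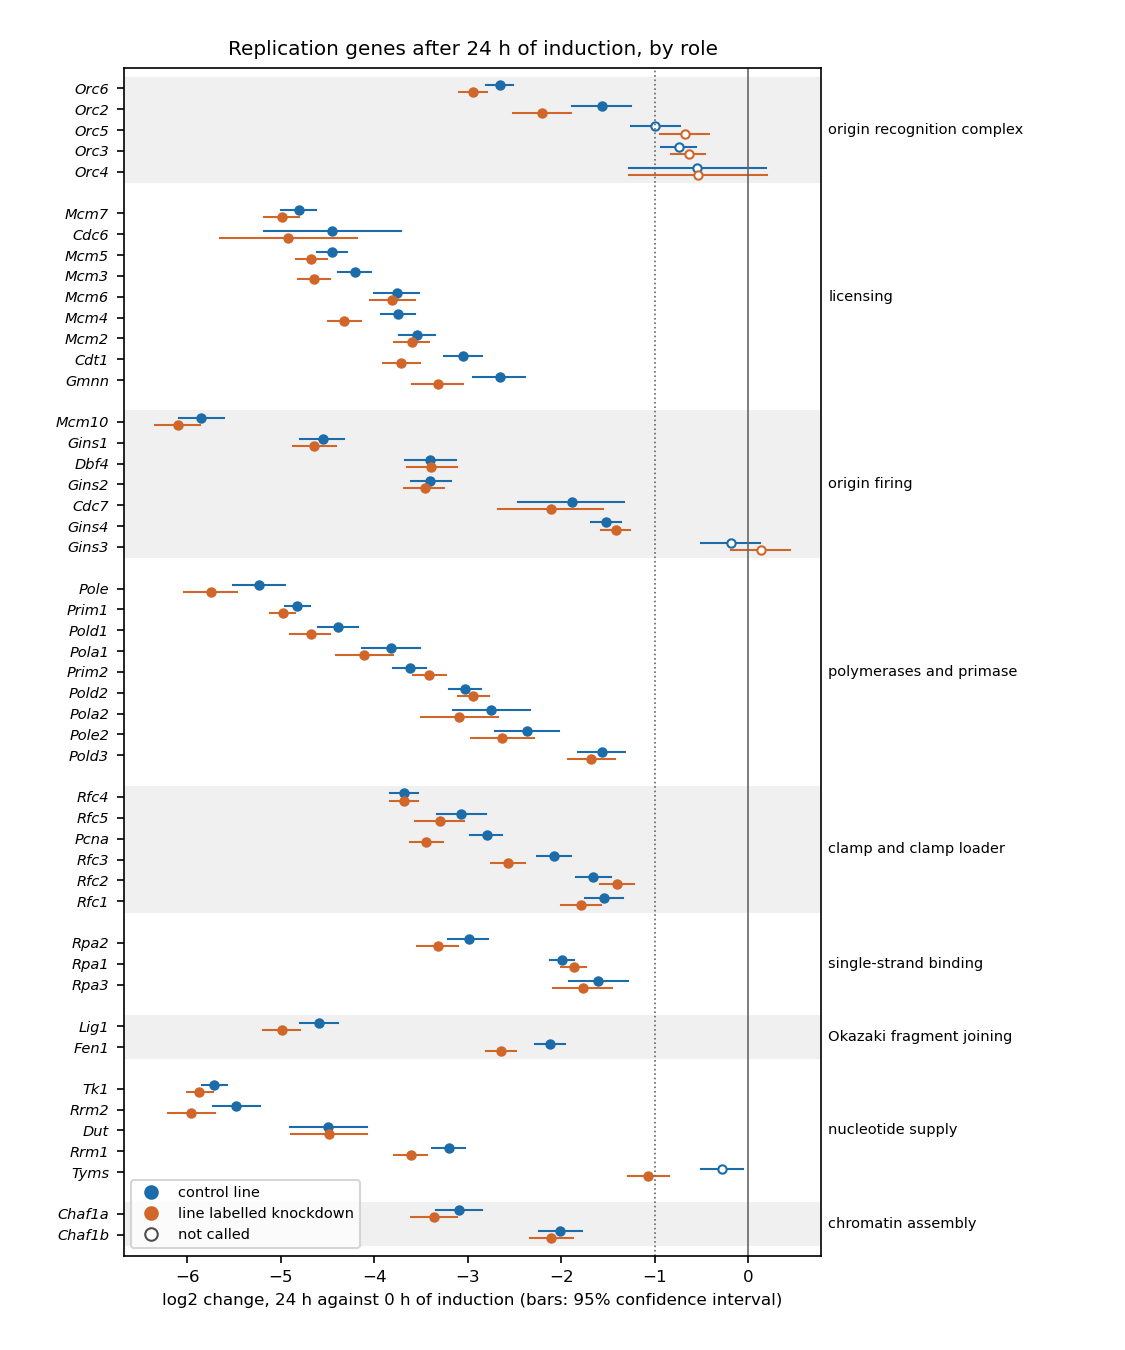
Log2 change after 24 h of induction for each of the 48 genes, grouped by role, in control cells (blue) and the line labelled knockdown (orange), with 95% confidence intervals from the limma fit, filled circles for called genes, a solid line at 0 and a dotted line at the 2-fold limit. All licensing genes lie at -2.66 or below, while Gins3 lies at the zero line in both lines.

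Among the 7 origin firing genes, 6 were called lower in each line, and the group held both extremes of the whole set. Mcm10, which joins the helicase to the polymerases, had the largest change of all 48 genes: 13.4 and 11.4 at 0 h against 0.209 and 0.220 at 24 h in control cells, and 15.2 and 14.3 against 0.222 and 0.207 in the line labelled knockdown. The changes were -5.85 ± 0.10 (adjusted p = 1e-06) and -6.10 ± 0.10 (adjusted p = 7.3e-07), which left 1.74% and 1.46% of the starting level. The GINS complex, 4 proteins that complete the active helicase, had members at both ends of the range. Gins1 went from 9.41 and 8.53 to 0.398 and 0.366 in control cells and from 12.5 and 11.2 to 0.487 and 0.458 in the line labelled knockdown, changes of -4.55 ± 0.09 (adjusted p = 1.5e-06) and -4.64 ± 0.09 (adjusted p = 1.1e-06). Gins2 fell by 3.40 and 3.46, and Gins4 by 1.52 and 1.42. Gins3 was not called: its level was 19.8 and 24.3 at 0 h and 18.6 and 19.7 at 24 h in control cells, and 18.8 and 20.6 against 20.1 and 22.9 in the line labelled knockdown. The times overlapped in the line labelled knockdown but not in control cells, and changes of -0.19 ± 0.13 (adjusted p = 0.24) and 0.13 ± 0.13 (adjusted p = 0.41) had 95% intervals of -0.51 to 0.12 and -0.19 to 0.44, so a fall of the size seen in Gins1 lies outside them. Dbf4, the activating subunit of the Cdc7 kinase, fell by 3.40 and 3.39. Cdc7 itself was dim, not well above background on any array at 24 h, and at least 2.22-fold and 2.64-fold lower. A second Cdc7 probe, well above background on 4 of 8 arrays too, gave fitted changes of -3.73 ± 0.44 and -3.93 ± 0.44.

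All 9 genes of the polymerases and primase were called lower in both lines, with medians of -3.62 and -3.41. Pole, the catalytic subunit of the leading strand polymerase epsilon, went from 8.44 and 8.24 to 0.211 and 0.233 in control cells and from 7.73 and 8.52 to 0.138 and 0.165 in the line labelled knockdown. The changes were -5.23 ± 0.11 (adjusted p = 1.7e-06) and -5.75 ± 0.11 (adjusted p = 1e-06), and a second probe, well above background on 4 of 8 arrays, gave fitted changes of -4.83 and -5.02. Prim1, the catalytic subunit of primase, had tight duplicates: 16.4 and 16.0 against 0.575 and 0.568 in control cells, and 17 and 17.1 against 0.533 and 0.549 in the other line. Its changes were -4.83 ± 0.05 (adjusted p = 7e-07) and -4.98 ± 0.05 (adjusted p = 5.2e-07). The catalytic subunits of polymerase delta (Pold1) and polymerase alpha (Pola1) fell by 4.39 and 3.82 in control cells and by 4.68 and 4.11 in the other line. Of the accessory subunits, Prim2 fell by 3.62 and 3.41, Pold2 by 3.03 and 2.94, and Pole2 by 2.37 and 2.63. Pola2 was below detection on both control arrays at 24 h, at least 6.73-fold lower, and was measured on 1 of 2 arrays at 24 h in the line labelled knockdown (fitted change -3.09 ± 0.17). Pold3, an accessory subunit of polymerase delta that also acts in repair, fell least, from 6.94 and 7.21 to 2.24 and 2.53 and from 6.38 and 7.05 to 1.97 and 2.22. Its changes were -1.57 ± 0.10 (adjusted p = 6e-05) and -1.68 ± 0.10 (adjusted p = 4e-05), without overlap between the times.

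**Figure D3:**
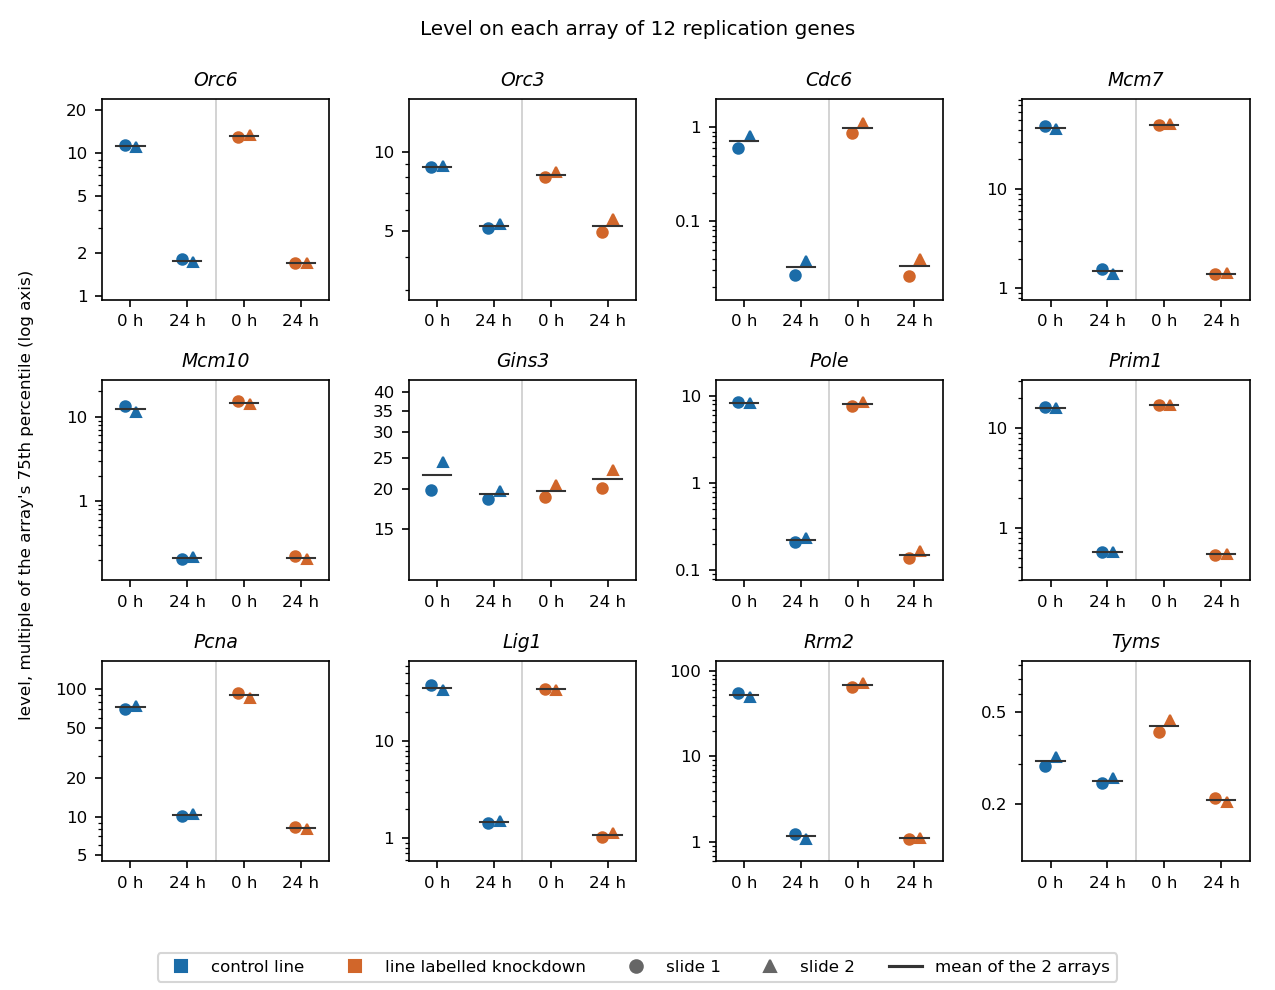
Level on each of the 8 arrays (log axis, multiples of the array's 75th percentile) of 12 of the 48 genes, with control arrays in blue, arrays of the line labelled knockdown in orange, circles for slide 1, triangles for slide 2 and bars at the mean of the 2 arrays. Mcm10 goes from 13.4 and 11.4 to 0.209 and 0.220 in control cells, while Gins3 stays between 18.6 and 24.3 on all 8 arrays.

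The clamp and its loader were called lower in 6 of 6 genes in each line, with medians of -2.44 and -2.93. Pcna, the clamp, fell by 2.80 and 3.45. Replication factor C is a complex of 5 subunits, and they differed in size of change. Rfc4 went from 20.4 and 20.1 to 1.6 and 1.56 in control cells and from 18.7 and 17.8 to 1.39 and 1.46 in the line labelled knockdown, -3.68 ± 0.06 in each (adjusted p = 9.7e-07 and 7.6e-07). Rfc5 went from 21.8 and 19.6 to 2.56 and 2.37 and from 26.0 and 22.8 to 2.59 and 2.35, changes of -3.07 ± 0.10 (adjusted p = 5.9e-06) and -3.30 ± 0.10 (adjusted p = 4.1e-06). Rfc2 changed least on average, from 11.4 and 10.9 to 3.59 and 3.49 and from 11.9 and 10.7 to 4.31 and 4.20, -1.66 ± 0.07 (adjusted p = 1.5e-05) and -1.41 ± 0.07 (adjusted p = 2.4e-05). The large subunit Rfc1 fell by 1.54 and 1.79, and Rfc3 by 2.08 and 2.57.

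Replication protein A coats single-stranded DNA, and its 3 subunits were all called lower in both lines. Rpa2 went from 4.16 and 3.96 to 0.493 and 0.527 in control cells and from 4.80 and 4.59 to 0.5 and 0.440 in the line labelled knockdown, changes of -2.99 ± 0.09 (adjusted p = 3.6e-06) and -3.32 ± 0.09 (adjusted p = 2.2e-06). Rpa3 went from 24.0 and 22.6 to 8.28 and 7.06 and from 27.4 and 25.2 to 8.46 and 7, changes of -1.61 ± 0.13 (adjusted p = 0.00014) and -1.77 ± 0.13 (adjusted p = 7.8e-05). Rpa1 fell by 1.99 and 1.87, and by 2.23 and 2.72 on a second probe. On the lagging strand, Lig1, the ligase that seals Okazaki fragments, went from 37.6 and 33.6 to 1.43 and 1.52 in control cells and from 34.5 and 33.8 to 1.04 and 1.12 in the other line. It fell by 4.59 ± 0.08 (adjusted p = 1.1e-06) and by 4.99 ± 0.08 (adjusted p = 7.7e-07), without overlap between the times. Fen1, the nuclease that trims those fragments, went from 21.0 and 20.5 to 4.68 and 4.84 and from 30.4 and 28.5 to 4.57 and 4.80, changes of -2.12 ± 0.06 (adjusted p = 4.2e-06) and -2.65 ± 0.06 (adjusted p = 1.8e-06).

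Nucleotide supply genes held 2 of the 3 largest falls of the whole set and 1 of the smallest, with 4 of 5 called in control cells and 5 of 5 in the other line. Tk1, the thymidine kinase of cycling cells, went from 21.1 and 21.0 to 0.405 and 0.402 in control cells and from 23.4 and 23.0 to 0.390 and 0.406 in the line labelled knockdown. Rrm2, the small subunit of ribonucleotide reductase, went from 55.3 and 49.6 to 1.25 and 1.10 and from 65.2 and 72.7 to 1.08 and 1.13. Neither overlapped between the times, and at 24 h Tk1 was at 1.92% and 1.71% of its starting level and Rrm2 at 2.24% and 1.61%. The large partner Rrm1 fell by 3.20 and 3.61, and Dut, the dUTPase that keeps uracil out of DNA, by 4.49 and 4.48. Tyms, which makes thymidylate, was measured by a dim probe and gave 0.294 and 0.322 at 0 h against 0.247 and 0.259 at 24 h in control cells, and 0.410 and 0.465 against 0.213 and 0.204 in the line labelled knockdown. The times did not overlap in either line, but the control change of -0.28 ± 0.09 (adjusted p = 0.036) was under 2-fold, while that of -1.07 ± 0.09 (adjusted p = 0.00015) was called. The latter call was lost under the normexp correction with quantile normalization (-0.90), in the authors' deposited value table (-0.90) and without replicate 2 of the line labelled knockdown at 0 h (-0.98). The chromatin assembly factor, which places histones behind the fork, fell in both subunits. Chaf1a went from 7.76 and 8.03 to 0.991 and 0.863 and from 9.08 and 8.57 to 0.909 and 0.808, changes of -3.09 ± 0.10 (adjusted p = 5e-06) and -3.36 ± 0.10 (adjusted p = 3.3e-06). Chaf1b went from 30.5 and 27.4 to 7.52 and 6.87 and from 32.1 and 28.8 to 7.12 and 6.99, changes of -2.01 ± 0.09 (adjusted p = 1.7e-05) and -2.11 ± 0.09 (adjusted p = 1.2e-05).

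Related genes outside the 48 gave the same direction in most cases. Of 32 other fork and origin genes tested, 24 fell in control cells and 25 in the line labelled knockdown, and none rose. Of all genes tested, 13.1% and 15.4% were called lower in these 2 lines. Ticrr, which recruits helicase activators to origins, fell by 5.41 ± 0.07 and 6.19 ± 0.07, Dscc1, a subunit of an alternative clamp loader, changed by -4.95 and -6.12, and the helicase Recql4 by -5.14 and -5.35. At 24 h Dscc1 was well above background on 1 of 2 arrays in each line and Ticrr on 1 of 2 in the line labelled knockdown. Of 10 other histone chaperones 9 and 10 fell, among them the chromatin remodeller Hells (measured on 1 of 2 arrays at 24 h in each line) by 4.48 and 4.85, Asf1b by 3.82 and 4.05, and Nasp by 3.16 and 3.53. Nucleotide synthesis was more mixed: of 34 other genes tested, 22 fell and none rose in control cells, and 24 fell and 3 rose in the line labelled knockdown. Rises were a smaller share there than among all genes, of which 14.2% and 16.7% were called higher. Those that fell included the folate enzyme Shmt1 by 3.30 and 4.52, and the deoxycytidylate deaminase Dctd by 2.63 and 2.62 (not well above background on the control arrays at 24 h, at least 5.94-fold lower). The 3 that rose were Samhd1, which breaks down deoxynucleotides, Tk2, the mitochondrial thymidine kinase, and Ctps2, a CTP synthase. Samhd1 had levels of 6.33 and 6.24 against 11.8 and 11.7 in control cells and 5.84 and 6.11 against 16.2 and 15.8 in the line labelled knockdown, changes of 0.91 ± 0.05 (adjusted p = 4.7e-05, under 2-fold) and 1.42 ± 0.05 (adjusted p = 8e-06). Tk2 gave 0.56 and 1.14, and Ctps2 1.00 (just under 2-fold) and 1.30. The medians of the fork, nucleotide and chaperone lists were -1.84, -1.45 and -1.56 in control cells and -2.45, -1.55 and -1.83 in the other line, beside 0.00 and 0.14 for all genes. The 15 reference genes had medians of 0.02 and 0.53. In the line labelled knockdown 9 of them passed the adjusted p as higher after induction and 5 as lower, so scaling to them was added as an alternative after this was seen.

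**Figure D4:**
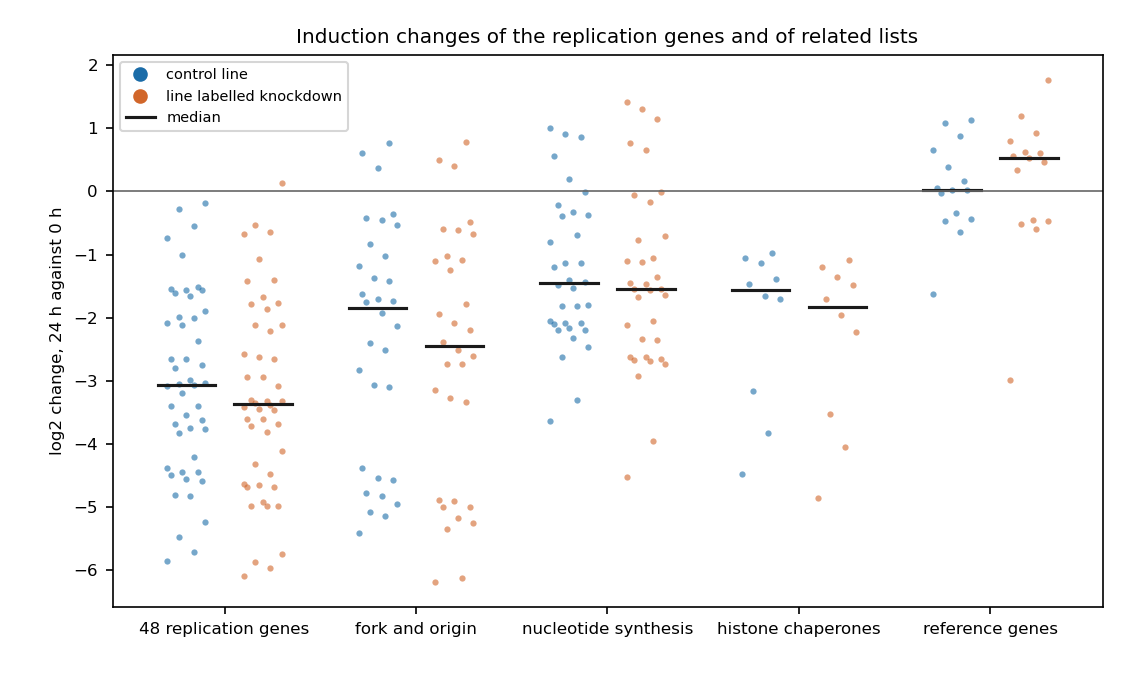
Log2 change after 24 h of induction of each gene in the 48 replication genes, 3 related lists and 15 reference genes, with control cells in blue, the line labelled knockdown in orange and bars at the medians. The medians of the 3 related lists lie between -1.45 and -2.45, and those of the reference genes at 0.02 and 0.53.

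The next comparisons asked whether the lines differed in these genes. By the same rule none of the 48 genes was called between the lines at 0 h, at 24 h or in the difference between the inductions (limma), where 1.73%, 2.04% and 3.82% of all genes were called in either direction. At an unadjusted p under 0.05 the counts were 16, 20 and 15 of 48 (33.3%, 41.7% and 31.2%), and the shares of all genes were 30.7%, 31.3% and 33.3%. The medians were 0.12 at 0 h, -0.08 at 24 h and -0.23 for the difference between the inductions, where all genes had 0.00, 0.04 and 0.05. With the adjusted p alone and no limit on size, 1 gene was lower in the line labelled knockdown at 0 h (7.56% of all genes were) and 4 were higher (5.92% of all genes). At 24 h 7 were lower (6.45% of all genes) and none higher (7.39% of all genes). Induction lowered 9 genes more in the line labelled knockdown (7.05% of all genes had a negative difference) and none less (9.21% of all genes a positive one). With the slide as a block, 1 gene was lower and 9 were higher at 0 h, where 12.8% and 11.2% of all genes were. At 24 h 9 were lower and 4 higher, beside 10.5% and 15.9% of all genes. In the difference 13 were negative and 0 positive, beside 11.8% and 17.9% of all genes.

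At 0 h the 4 higher genes were Fen1 (0.51 ± 0.06, adjusted p = 0.0094), Tyms (0.50 ± 0.09, adjusted p = 0.023), Gins1 (0.40 ± 0.09, adjusted p = 0.049) and Pcna (0.31 ± 0.07, adjusted p = 0.044), and the lower gene was the primase subunit Prim2 (-0.42 ± 0.07, adjusted p = 0.020). Prim2 had levels of 17.7 and 16.3 in control cells and 12.6 and 12.7 in the other line, so the lines did not overlap. At 24 h the 7 lower genes were Cdt1 (-0.64 ± 0.08, adjusted p = 0.0088), Pole (-0.56 ± 0.11, adjusted p = 0.032), Gmnn (-0.49 ± 0.11, adjusted p = 0.043), Lig1 (-0.45 ± 0.08, adjusted p = 0.023), Rrm1 (-0.34 ± 0.07, adjusted p = 0.033), Pcna (-0.33 ± 0.07, adjusted p = 0.036) and Mcm4 (-0.31 ± 0.07, adjusted p = 0.046). Cdt1 had levels of 2.54 and 2.60 in control cells at 24 h and of 1.54 and 1.77 in the line labelled knockdown, after 21.4 and 21.2 against 21.4 and 21.8 at 0 h. Its lines therefore lay together before induction and apart after it. For Gmnn a second probe gave a difference of 0.64 ± 0.21 at 24 h (limma, adjusted p = 0.1). For Pole a second probe gave 0.09 ± 0.13 (adjusted p = 0.72). Both went the other way and neither passed, and each of these probes was well above background on only 4 arrays.

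The 9 genes with a negative difference between the inductions were Cdt1, Gmnn, Mcm3 and Mcm4 of licensing, Pcna and Rfc3 of the clamp and loader, Fen1 of Okazaki fragment joining, and Rrm1 and Tyms of nucleotide supply. The origin recognition complex, origin firing, polymerase and primase, single-strand binding and chromatin assembly roles held none. Tyms had the largest, -0.78 ± 0.13 (95% interval -1.10 to -0.47, adjusted p = 0.018), from levels that were higher in the line labelled knockdown at 0 h and lower at 24 h. The same crossing held for Pcna, with 70.5 and 73.7 against 93 and 85.7 at 0 h and 10.1 and 10.6 against 8.35 and 8.05 at 24 h (-0.64 ± 0.10, adjusted p = 0.016). The difference had the same sign on both slides for each of the 9 genes, for example -0.72 and -0.60 for Cdt1 and -0.67 and -0.62 for Pcna. The genes were picked by a test on these same arrays, which favours such agreement, so it adds no support. A second Gmnn probe, measured on 4 of 8 arrays, gave a difference of 0.54 ± 0.29 (adjusted p = 0.27) against -0.66 ± 0.16 (adjusted p = 0.045). A second Mcm3 probe, measured on 8 of 8 arrays, gave -0.36 ± 0.12, which did not pass (adjusted p = 0.10). A second Rpa1 probe, also measured on 8 of 8, gave -0.49 ± 0.10 (adjusted p = 0.033), where the probe that stands for the gene gave 0.12 ± 0.08 (adjusted p = 0.33 among all probes). Under median scaling or with no filter on dim probes, 0 of the genes passed the adjusted p in the difference, and leaving out any 1 of the 8 arrays left between 0 and 3. Of all genes, 0.681% passed with a negative difference under median scaling and 0.0819% with no filter. Of the related genes, 1 of 32 fork and origin genes was called at 24 h and in the difference, and 1 of 34 nucleotide synthesis genes in the difference. None of the 10 histone chaperones was, and 2.04% and 3.82% of all genes were called at 24 h and in the difference. The fork gene was Ccne1, the cyclin E that drives entry into S phase. Its levels were 1.61 and 1.58 in control cells at 24 h against 0.731 and 0.770 in the other line. The difference was -1.09 ± 0.07 (adjusted p = 0.0015), and -1.45 ± 0.09 between the inductions (adjusted p = 0.0025). Atic, of purine synthesis, was called between the inductions only (-1.24 ± 0.18, adjusted p = 0.014), with -0.33 in control cells and -1.57 in the line labelled knockdown.

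**Figure D5:**
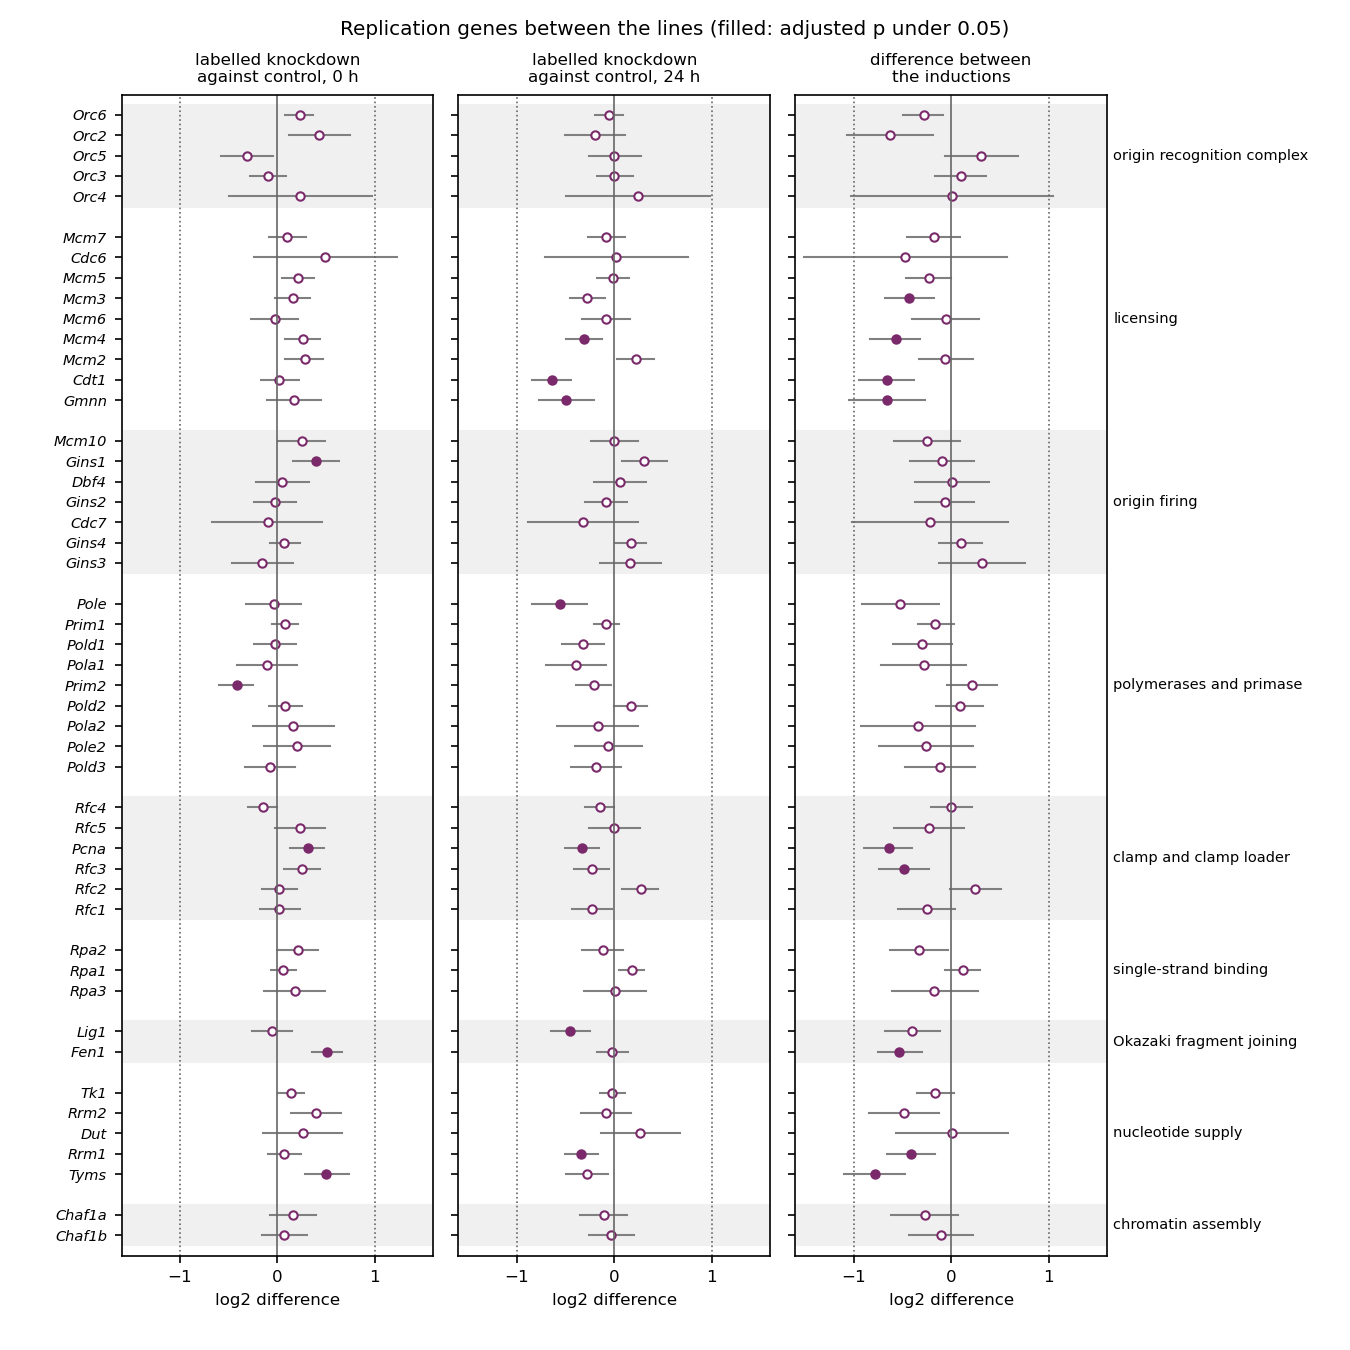
Log2 difference of each of the 48 genes between the line labelled knockdown and control at 0 h (left) and at 24 h (middle), and between their inductions (right), with 95% confidence intervals, filled circles where the adjusted p is under 0.05 and dotted lines at the 2-fold limit. No gene lies beyond the 2-fold limit in any panel, and 9 filled circles in the right panel lie between -0.41 and -0.78.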

How the data were processed

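RNA from the 8 samples was hybridised to 1-colour (Cy3) Agilent mouse arrays, annotated on build mm9 per the file headers, after labelling of 500 ng total RNA per the labels' protocols. The deposited intensity of each spot is the processed signal of Feature Extraction 10.7.3.1, background-subtracted and detrended within the array per the file headers. The deposited value table holds the authors' log2 values with 1 common distribution (median 6.84 on every array), and was matched spot by spot when the mean signals were corrected by normexp (offset 50) and quantile-normalized here; it served as an alternative. The submitters' processing notes name limma.

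Here log2 processed signals were centred on each array's 75th percentile, outlier spots were left out, and probes had to stand well above background on the 2 arrays of some group (20306 probes). The brightest kept probe stood for its gene. A linear model with 4 group means (limma 3.58.1, R 4.3.3, 4 residual degrees of freedom) gave 5 contrasts, all 2-sided. Its ability to recover known changes was tested on simulated data for the control induction only, with changes above 2-fold. Smaller changes and the other contrasts were not simulated. Array probes were not searched against a genome, so cross-hybridisation between related genes was not examined. Replicate numbers mark the slide, and the deviations of same-numbered arrays from their group means correlated at 0.30 to 0.41 over the 6 pairs of groups, so a fit with the slide as a block was an alternative. Saturated spots were 0 on every array. The number of arrays limits the precision.

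Genes, role groups, related lists and markers were chosen with earlier results of these data known, and no list is independent support. Per-array values are given for the members with the largest and smallest mean change in each role, the next largest in roles of 6 or more, and members called in fewer than 2 inductions or between the lines; of the related lists, the 3 largest falls and rises called in both inductions and those called between the lines (1 gene that this rule names is not reported here). Prim2, Cdt1, Pcna, Rrm2, Samhd1, Tk2 and Ctps2 and the members that passed the adjusted p alone were named after their values were seen. Promoter windows come from RefSeq; 8 members are not in the table used (Gmnn, Mcm4, Gins1, Gins2, Gins4, Prim2, Pole and Rfc2).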

Additional observations from a re-analysis of the deposited data

Results flagged for a closer look

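For 9 of the 48 genes the induction change differed between the lines by the test of the difference itself (limma, 4 residual degrees of freedom, adjusted over all genes), each with a larger fall in the line labelled knockdown and each under 2-fold. The differences were -0.78 for Tyms, -0.66 for Cdt1, -0.66 for Gmnn, -0.64 for Pcna, -0.57 for Mcm4, -0.53 for Fen1, -0.48 for Rfc3, -0.43 for Mcm3 and -0.41 for Rrm1, with adjusted p between 0.016 and 0.046. A second Gmnn probe went the other way (0.54, adjusted p = 0.27), and a second Mcm3 probe did not pass (-0.36, adjusted p = 0.10). Under median scaling, or with no filter on dim probes, 0 of the 48 genes passed. The sign was the same on both slides for each of the 9 genes, but picking genes by this test favours such agreement, so it adds no support. By the same rule 7.05% of all genes tested had a negative difference. The 15 reference genes had a median difference of 0.29 between the inductions. Scaling to them, chosen after seeing the data, turned the median difference of the 48 genes from -0.23 to -0.70 and that of all genes from 0.05 to -0.42.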

How the results depend on the processing

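The counts of genes that fell on induction stayed within 1.5 times of 43 and 44 under every alternative run, and 0 genes were called higher in each. With 48 genes in all, only a drop could have passed that limit. The share of all genes called lower ranged from 6.54% to 31.1% in control cells and from 7.81% to 32% in the line labelled knockdown. The share called higher ranged from 7.51% to 30.7% and from 9.84% to 36.2%. Without a limit on size the counts between the lines were 1 lower and 4 higher at 0 h, 7 lower at 24 h and 9 lower in the difference between the inductions. With reference gene scaling, added after seeing the data, 1 gene was called lower at 24 h and 6 in the difference, where 2.92% and 6.17% of all genes were. With the replicate block for the slide, 43 and 44 genes were called lower in the inductions, where 13.3% and 15.6% of all genes were. Between the lines 0 were called at 0 h, at 24 h or in the difference. Of all genes, 1.44%, 1.08% and 1.6% were called lower there, and 0.359%, 1.13% and 2.58% higher. The numbers of genes past the adjusted p alone were less stable: in the difference they were 9 (7.05% of all genes were lower), 0 under median scaling (0.681%) or without the filter on dim probes (0.0819%), 7 with normexp and quantile normalization (4.71%), 13 with the replicate block (11.8%), 21 with reference gene scaling (17.7%), and 0 to 3 without any 1 array (1.67% to 3.66%). At 24 h 7 genes were lower in the main fit (6.45% of all genes). The count was 0 under median scaling (0.972%) and without the filter on dim probes (0.403%). It was also 0 when only the arrays of that comparison were fitted (2.23%). With normexp and quantile normalization 3 were lower (4.94%) and 1 higher (4.54%). Without any 1 array the median of the 48 genes lay between -0.1 and -0.07. With reference gene scaling 20 were lower at 24 h, where 21.2% of all genes were. At 0 h 4 genes were higher in the main fit (5.92% of all genes). That number was 0 under median scaling (0.347%), without that filter (0.189%) and with reference gene scaling (0.891%). When only the arrays of that comparison were fitted 0 were higher (0.322%), and with normexp and quantile normalization 4 were (3.76%). The median of the 48 genes lay between 0.08 and 0.14 without any 1 array. Median scaling moved the median change of all genes to -0.11 in both inductions, and the share of higher calls among all called genes in the line labelled knockdown from 52.0% to 39.1%, while reference gene scaling gave 26.5% and a median of -0.38. Cdc6, Cdc7 and Pola2 were too dim at 24 h for an exact size of change.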
